A study of Rattus norvegicus with 9 samples.

Results

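Voltage-gated sodium, voltage-gated calcium, HCN, ClC chloride and TRP channel genes were followed in rat spinal cord after a contusion at thoracic segment 9. The genes were chosen by name: protein-coding rows whose symbols begin with Scn, Cacna, Cacnb, Cacng, Clcn, Trpa, Trpc, Trpm or Trpv and the 4 Hcn genes, which gave 76 of the 36051 genes in the count table. Of these, 61 had at least 10 counts in at least 3 libraries and were tested among 16760 genes. Trpc4ap, one of the 61, and Trpc5os, which had 0 counts in every library, match the name pattern but do not encode channels, so the tested set held 60 channel genes. The study compared 3 groups of wild-type rats with 3 libraries each, all of whole spinal cord tissue taken on day 3: sham animals, contused animals given normal saline (SCI_Veh) and contused animals given alpha-lipoic acid (SCI_ALA), a dithiol cofactor used as an antioxidant. Strain, age, dose and the number of animals behind a library are not given in the labels, so the p-values reflect only how far these libraries differ among themselves, which may be technical.

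Sodium channels carry the upstroke of the action potential, with a pore-forming alpha subunit and smaller beta subunits that set its gating and placement. Calcium channels couple depolarisation to transmitter release and other calcium signals, HCN channels open on hyperpolarisation and set resting excitability, ClC proteins move chloride across the plasma membrane or acidify endosomes and lysosomes, and TRP channels are cation channels gated by lipids, heat, stretch, calcium or oxidants. Neurons use most members of the first 3 families, while some TRP and ClC genes are known from astrocytes, microglia and macrophages. From such general knowledge the channel genes were placed in classes: 32 neuronal, 7 glial or immune, 5 endosomal or lysosomal, 7 broadly expressed, 8 known mainly from other tissues and 1 of sensory neurons among those tested.

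Libraries held 13857771 to 15736132 counts. Summed markers of neurons ranged from 4890 to 7670 CPM (counts scaled to library size, with TMM factors) in sham, 2040 to 3010 in SCI_Veh and 2570 to 3380 in SCI_ALA, and all 10 were detected in each group. Markers of microglia and macrophages summed to 817 to 853 CPM in sham, 5550 to 6530 in SCI_Veh and 3950 to 5380 in SCI_ALA. Those of oligodendrocytes summed to 46700 to 83900, 19200 to 32200 and 23800 to 33300 CPM in the same order of groups. Those of astrocytes summed to 12400 to 19000, 7200 to 10100 and 11000 to 12000 CPM. Skeletal muscle markers summed to between 6.20 and 40.2 CPM in the 9 libraries and did not separate the groups. Sham library 2 had the highest mitochondrial share of counts (15.68%, against 6.404 to 12.26% in the others), and SCI_ALA library 3 had the lowest correlation of its expression deviations with gene length (Spearman rho -0.46 across genes, against -0.285 to 0.342). Counts of calls are therefore also given without these 2 libraries.

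Channel transcripts of sham cord covered a wide range of levels. Per transcript length, in the FPKM values that the authors deposited, Hcn2 stood at 114 ± 19.9 (SD, n = 3). Cacng7 followed at 63.8 ± 5.19 FPKM, Clcn3 at 25.6 ± 4.25, Clcn4 at 22.2 ± 4.26 and Scn4b at 18.5 ± 10.1, and the spreads of these last 3 overlapped. By mean level, the highest pore-forming sodium channel gene was Scn1a at 3.39 ± 1.80 FPKM, which did not differ beyond the spread from the beta subunit gene Scn3b at 4.28 ± 1.25. In SCI_Veh, Hcn2 was at 48.9 ± 14.4 FPKM and Trpv2, at 3.43 FPKM in sham, stood at 27.9 ± 3.93, which did not differ from Cacng7 (28.3 ± 7.61) beyond the spread.

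After injury with saline, more channel genes were called lower than higher. Of the 61 tested genes, 24 were lower and 4 higher in SCI_Veh than in sham, 39.3% and 6.56% of them, while 18.4% and 19.4% of all tested genes were called lower and higher (edgeR quasi-likelihood test, Benjamini-Hochberg adjusted p below 0.05). The median log2 fold change was -0.86 over the 61 genes and 0.00 over all genes tested. Those called lower fell between 1.51-fold and 8.26-fold, with Scn1a at the far end. By DESeq2 the counts were 27 lower and 7 higher, against a background of 21.1% in each direction. The added genes were Scn8a, Cacng2 and Trpm3 (lower) and Clcn7, Hcn4 and Trpv3 (higher). Without sham library 2 and SCI_ALA library 3, edgeR called 27 lower and 4 higher. In bulk tissue, fewer cells of a type and less RNA per cell cannot be told apart, so each change below is one of tissue level.

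Of 32 neuronal genes, 16 were lower in SCI_Veh than in sham and 0 higher, with a median log2 fold change of -1.18, and DESeq2 called 18 lower and 1, Hcn4, higher; at an unadjusted p below 0.05 Hcn4 was also the only 1 higher. The neuronal count was between 11 and 20 over the alternative settings. The 11 came from limma on FPKM of at least 1, where only 20 of the 32 were tested. The lowest and highest medians were -1.31 and -0.59, the latter from limma on log2(FPKM + 1) without a filter. Of the 7 glial or immune genes, 1 was lower (Cacng5) and 1 higher (Trpv2), with a median of -0.05 that took either sign over the alternatives (-0.20 to 0.21). Each is 14.3% of the class, near the 18.4% lower and 19.4% higher among all tested genes, whereas 50% of the neuronal genes were lower. Cacng5 reached the filter through its sham libraries, so the filter favoured a lower call for it. Of the 10 neuron markers, 7 were lower, with a median of -1.45, and of the 10 microglia and macrophage markers 9 were higher, with a median of 1.51. The fall was not limited to neuron markers. Of 8 astrocyte markers 7 were lower (median -1.96), and of 8 oligodendrocyte markers 6 were lower (median -1.30). Of 6 markers of oligodendrocyte precursors 0 were called (median 0.19). The part of these shifts in the channel values was not tested. The classes were assigned with earlier results of these data known, and the counts describe them without a test between classes.

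**Figure D1:**
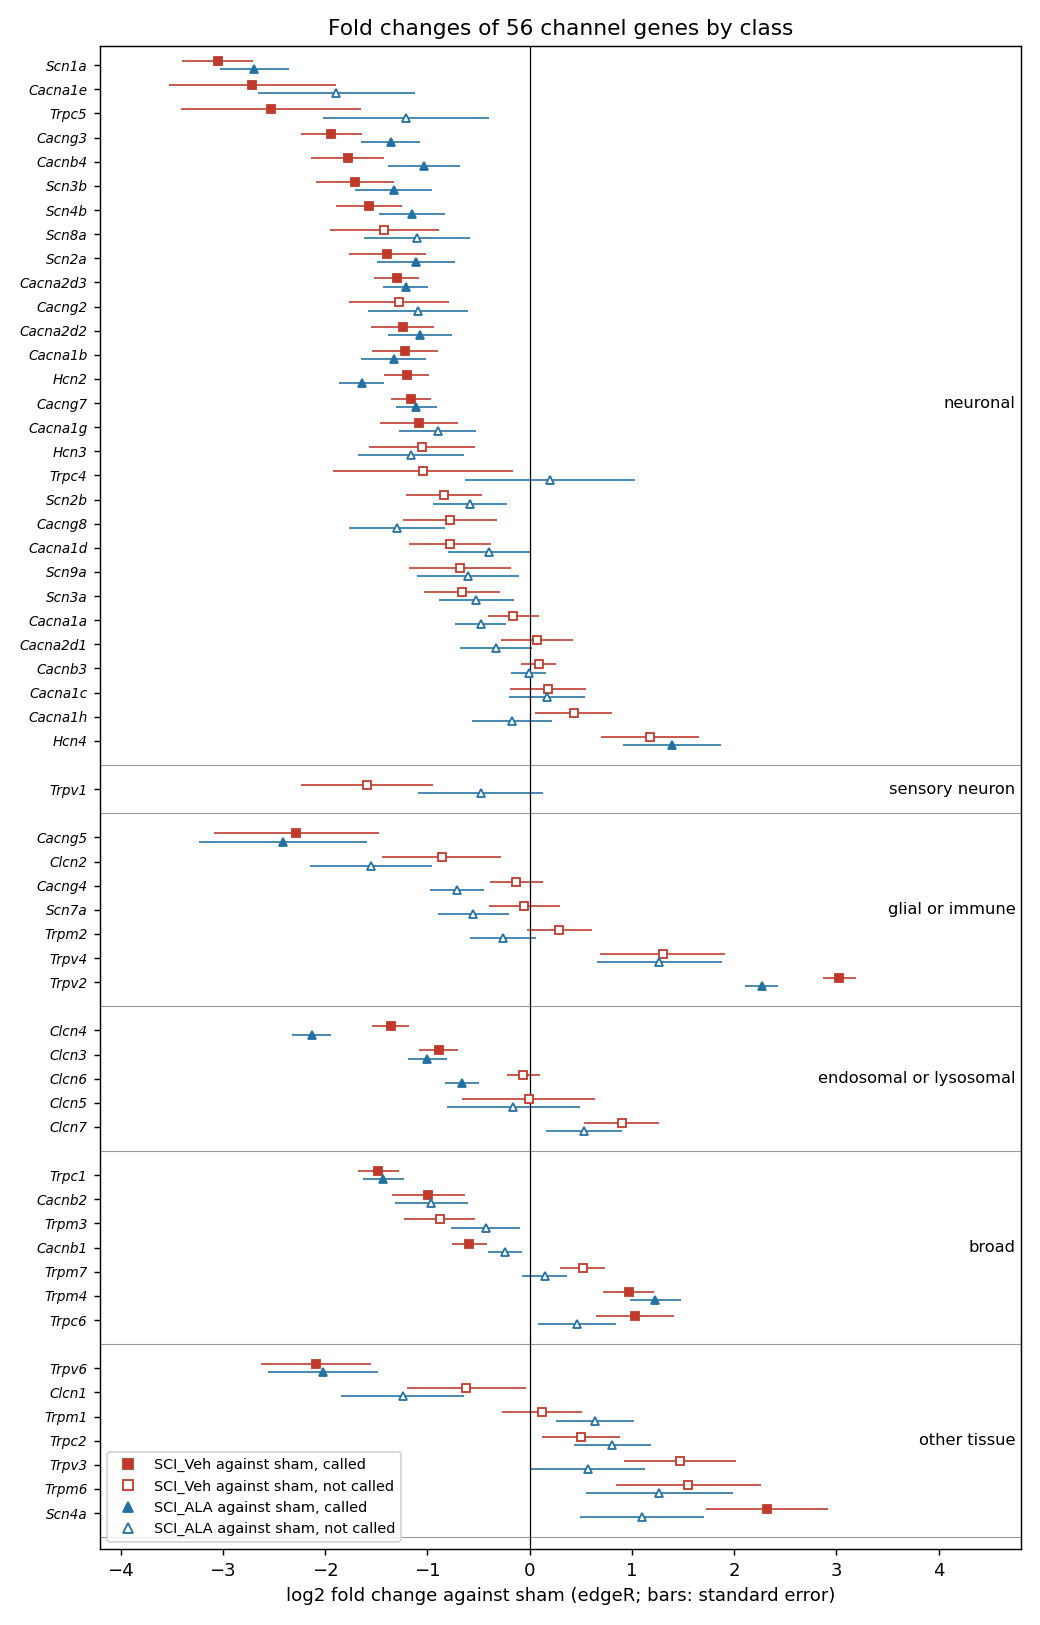
Log2 fold change against sham (x axis) of 56 of the 60 tested channel genes (y axis), grouped by class, for SCI_Veh (red squares) and SCI_ALA (blue triangles), with bars for the standard error and filled symbols for an edgeR adjusted p below 0.05. Most neuronal genes lie left of 0 in both comparisons, which share the sham libraries, while Trpv2 lies farthest to the right at 3.03 and 2.27.

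Among the sodium channel alpha subunits, Scn1a showed the deepest fall. Scn1a, which supports firing of inhibitory interneurons and motor neurons, stood at 26.3, 30.2 and 64.9 CPM in sham, 3.61, 4.67 and 6.42 in SCI_Veh, and 6.77, 6.38 and 5.70 in SCI_ALA. Sham lay above every injured library, with its library 3 the highest of all. The log2 fold changes were -3.05 ± 0.35 in SCI_Veh (SE, edgeR, adjusted p = 5.38e-05) and -2.69 ± 0.34 in SCI_ALA (adjusted p = 0.000156).

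Scn2a, an alpha subunit of axon initial segments of excitatory neurons, had 23.1, 12.9 and 21.0 CPM in sham, 7.34, 3.54 and 10.9 in SCI_Veh and 10.7, 9.72 and 6.11 in SCI_ALA. It was lower in SCI_Veh (log2 fold change -1.39 ± 0.38, edgeR adjusted p = 0.0129), with no overlap of libraries. Its call in SCI_ALA (-1.11 ± 0.38, adjusted p = 0.0401) was lost without any 1 of 6 libraries, sham 1 and 3, SCI_Veh 1 and each SCI_ALA library, at adjusted p between 0.056 and 0.139. Scn8a, the main alpha subunit of mature nodes of Ranvier, had 6.55, 4.35 and 19.8 CPM in sham, 2.90, 3.20 and 5.40 in SCI_Veh and 6.50, 4.86 and 2.95 in SCI_ALA. Its highest value was that of sham library 3, the groups overlapped, and Scn8a did not pass in SCI_Veh (log2 fold change -1.42 ± 0.53, edgeR adjusted p = 0.0531), although it passed without sham library 1 (adjusted p = 0.0475) or sham library 2 (0.0159).

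Scn3a, the alpha subunit most prominent in the embryonic nervous system, measured 5.11, 3.32 and 4.26 CPM in sham, 2.77, 1.73 and 3.51 in SCI_Veh and 3.15, 3.33 and 2.40 in SCI_ALA, with log2 fold changes of -0.66 ± 0.37 and -0.52 ± 0.37 (edgeR adjusted p = 0.175 and 0.306). Scn9a, known from nociceptors, measured 2.36, 5.70 and 6.13, then 2.19, 1.93 and 4.73, then 3.22, 4.44 and 1.65 CPM in the same order of groups, and did not pass (adjusted p = 0.312 and 0.385, edgeR). The groups overlapped for both genes. Scn1a, Scn2a, Scn3a, Scn9a and Scn7a lie next to each other on chromosome 3 (Rnor_6.0, from base 51532627 to base 52849907), and only the first 2 of these 5 were called in either comparison with sham.

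The make-up of the alpha subunits of the neuronal class differed between sham and injured cord. Scn7a, of the glial or immune class, and Scn4a were not counted among them. Scn7a stood at 1.13 FPKM in sham, 1.08 in SCI_Veh and 0.767 in SCI_ALA, so the shares are not those of all alpha subunits. In the summed FPKM of Scn1a, Scn2a, Scn3a, Scn8a and Scn9a, Scn1a held 40.8 ± 7.12% in sham, 17.2 ± 4.87% in SCI_Veh and 18.3 ± 3.65% in SCI_ALA (SD, n = 3), and its lowest sham share, 32.6%, was above its highest injured share, 22.8%. The share of Scn3a was 8.24 ± 2.93%, 15.8 ± 2.25% and 14.8 ± 1.73%, although its own level was not called different. Scn10a and Scn11a, the alpha subunits of dorsal root ganglion neurons, stayed under the filter, and Scn11a had 0 counts in each SCI_Veh library, which allows up to 3 counts per library.

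Among the beta subunit genes, Scn4b and Scn3b were lower in both injured groups. Scn4b, the beta subunit linked to resurgent sodium current, had 55.9, 53.6 and 129 CPM in sham, 29.6, 21.9 and 29.0 in SCI_Veh and 41.7, 38.7 and 26.8 in SCI_ALA. Scn3b, a beta subunit that associates with alpha subunits without a covalent bond, had 18.5, 11.3 and 20.4 CPM in sham, 6.12, 3.94 and 5.34 in SCI_Veh and 9.11, 7.84 and 3.09 in SCI_ALA. Sham lay above all injured libraries for both. Scn4b fell by 1.57 ± 0.32 on the log2 scale in SCI_Veh and Scn3b by 1.71 ± 0.38 (edgeR adjusted p = 0.00309 and 0.00435). In SCI_ALA the falls were 1.15 and 1.33 on the log2 scale (adjusted p = 0.0174 and 0.0181), of which the first was lost without SCI_ALA library 3 (0.0698) and the second without sham library 1 (0.0554) or 3 (0.0584). Scn2b, which binds alpha subunits by a disulfide bond, did not pass in either comparison (edgeR adjusted p = 0.0901 and 0.244), and it passed in SCI_Veh without sham library 2 (0.0238).

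Most genes for proteins that anchor and tune sodium channels were lower too. Of 12 tested anchors and regulators, 8 (66.7%) were lower and 0 higher in SCI_Veh, with a median log2 fold change of -1.31. In SCI_ALA 10 (83.3%) were lower and 0 higher. Of all tested genes, 18.4% were lower and 19.4% higher in SCI_Veh, and 15.7% and 17.3% in SCI_ALA. Fgf13, an intracellular factor that binds the channel tail, was at 53.2, 74.3 and 63.4 CPM in sham, 9.14, 9.21 and 17.9 in SCI_Veh and 21.9, 20.7 and 17.4 in SCI_ALA (log2 fold change -2.40 ± 0.26 and -1.67 ± 0.25 against sham, edgeR adjusted p = 3.81e-05 and 0.000479). Cntn1, a contactin of nodes and paranodes, and Fgf12, a relative of Fgf13, fell by 1.45 and 1.40 on the log2 scale in SCI_Veh (adjusted p = 4.4e-05 and 0.000248). The 3 tested genes of the sodium leak channel, Nalcn, Unc79 and Unc80, were not called in SCI_Veh (edgeR adjusted p = 0.327, 0.103 and 0.131), and Nalcn was lower in SCI_ALA (log2 fold change -0.84, adjusted p = 0.0375).

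Calcium channel alpha1 genes were mixed. Of 7 tested, 3 (42.9%) were lower in SCI_Veh, Cacna1b, Cacna1e and Cacna1g, and 0 higher, against 18.4% and 19.4% of all tested genes. Cacna1b, the N-type channel of presynaptic terminals, had 10.7, 8.86 and 12.7 CPM in sham, 4.51, 3.40 and 5.94 in SCI_Veh and 5.16, 4.79 and 2.88 in SCI_ALA, with sham above every injured library. Its log2 fold changes were -1.22 ± 0.32 and -1.33 ± 0.32 (edgeR adjusted p = 0.00965 and 0.00736).

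Cacna1e, the R-type channel, had 2.16, 2.06 and 2.86 CPM in sham, 0.451, 0.0667 and 0.540 in SCI_Veh and 1.41, 0.278 and 0.206 in SCI_ALA, and reached the filter through its sham libraries. It was lower in SCI_Veh (log2 fold change -2.71 ± 0.82, edgeR adjusted p = 0.0211), a call lost without SCI_Veh library 2 (0.0666), and in SCI_ALA it did not pass with all libraries (0.0814) but did without SCI_ALA library 1 (0.0155). Cacna1g, a low-threshold T-type channel, had 15.4, 8.23 and 15.6 CPM in sham, 8.89, 6.80 and 2.90 in SCI_Veh and 7.64, 5.62 and 7.83 in SCI_ALA, and its sham and SCI_Veh libraries overlapped. Its call in SCI_Veh (-1.08 ± 0.38, adjusted p = 0.0439) was lost without any 1 of 7 libraries, all but sham 2 and SCI_Veh 1, at adjusted p between 0.0537 and 0.125. In SCI_ALA it did not pass with all libraries (0.0921) but did without sham library 2 (0.0364) or SCI_Veh library 3 (0.0407).

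The P/Q-type Cacna1a, the L-type Cacna1c and Cacna1d and the T-type Cacna1h were not called in either comparison, with log2 fold changes in SCI_Veh of -0.16, 0.18, -0.78 and 0.43. Cacna1a, like Cacna1b a channel of transmitter release, had mean levels of 2.15 FPKM in sham, 1.90 in SCI_Veh and 1.54 in SCI_ALA, where Cacna1b had 1.11, 0.469 and 0.437.

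Of 13 tested auxiliary calcium channel genes, 8 were lower in SCI_Veh and 6 in SCI_ALA, against 18.4% and 15.7% of all tested genes, with medians of -1.16 and -1.07 on the log2 scale, and 0 were higher in either. The Cacng genes among them include AMPA receptor regulatory proteins, which carry glutamate receptors to synapses. Cacng3, one of these, had 21.0, 14.1 and 13.9 CPM in sham, 3.41, 3.27 and 6.08 in SCI_Veh and 5.96, 6.66 and 6.46 in SCI_ALA, with no injured library near sham. It fell by 1.94 ± 0.30 and by 1.36 ± 0.29 on the log2 scale (edgeR adjusted p = 0.000394 and 0.00391).

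The promoter entry of Cacng3 is shown because it holds a stretch of letters of the RE1. This element is bound by REST, a repressor that keeps many neuronal genes silent outside neurons. Among the 46 tested genes with an entry, only Cacng3 held the stretch. RefSeq entries (GRCr8, 250 bases before to 50 after the start) were found for 56 of the 76 genes and 46 of the 61 tested. The letters CAGCACC followed, after any 2 bases, by GGAC were searched on both strands and chosen after promoters had been read. They occurred in 19 of 33469 promoters, which is 0.0568%. Cacng3 holds them at 2 places, in capitals, in chr1:186632312-186632611 on the plus strand. A match of letters is not a bound site.
Cacng3: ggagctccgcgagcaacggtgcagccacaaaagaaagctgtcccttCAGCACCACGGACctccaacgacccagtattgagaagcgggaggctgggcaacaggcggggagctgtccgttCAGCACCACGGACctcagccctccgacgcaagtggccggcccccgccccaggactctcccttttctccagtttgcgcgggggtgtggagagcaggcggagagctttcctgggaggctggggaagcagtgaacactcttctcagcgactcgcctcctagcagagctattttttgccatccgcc

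Cacng7, a member of the same group with an atypical tail, had 128, 147 and 126 CPM in sham, 57.5, 44.8 and 77.5 in SCI_Veh and 71.5, 61.1 and 52.9 in SCI_ALA. Cacnb4, a beta subunit that brings alpha1 subunits to the membrane, had 10.7, 10.5 and 18.6, then 4.57, 2.07 and 5.0, then 7.04, 7.15 and 5.36 CPM. Neither gene overlapped between sham and an injured group. Cacng7 fell by 1.16 ± 0.20 and by 1.11 ± 0.20 on the log2 scale (edgeR adjusted p = 0.000873 and 0.00137) and Cacnb4 by 1.78 ± 0.36 and by 1.03 ± 0.35 (adjusted p = 0.00238 and 0.0401). The second Cacnb4 call was lost without sham 3, SCI_Veh 1 or any SCI_ALA library, at adjusted p between 0.0532 and 0.16.

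The alpha2delta subunits, which raise the surface level of calcium channels, divided. Cacna2d3 had 18.8, 22.0 and 24.9 CPM in sham, 7.28, 8.34 and 11.1 in SCI_Veh and 8.71, 10.8 and 9.0 in SCI_ALA, and fell by 1.30 ± 0.22 and by 1.21 ± 0.22 on the log2 scale (edgeR adjusted p = 0.000761 and 0.00149). Cacna2d2 was also lower in both (log2 fold change -1.24 and -1.07, adjusted p = 0.00796 and 0.0193), the second call being lost without sham 1, sham 3 or SCI_ALA 3 (0.0675, 0.0583 and 0.0757). Cacna2d1, the binding site of gabapentin, had 5.77, 3.40 and 6.46 CPM in sham, 5.02, 3.80 and 7.63 in SCI_Veh and 4.76, 4.16 and 3.50 in SCI_ALA. Its groups overlapped, with a log2 fold change of 0.07 in SCI_Veh (95% interval -0.69 to 0.84, edgeR adjusted p = 0.893).

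Of the remaining beta subunits, Cacnb3 did not pass in either comparison (log2 fold change 0.09 and -0.01), while Cacnb1 and Cacnb2 were called lower in SCI_Veh only, by 0.59 and 0.99 on the log2 scale (edgeR adjusted p = 0.0158 and 0.048). The Cacnb1 call ended without sham 1, SCI_Veh 1 or SCI_Veh 2 (adjusted p up to 0.0584), and the Cacnb2 call without sham 2, sham 3, any SCI_Veh library, SCI_ALA 1 or SCI_ALA 2 (up to 0.131). In SCI_ALA, Cacnb2 did not pass with all libraries (0.0589) but did without sham library 1 (0.0425) and by DESeq2 (0.0338). Cacng2, the AMPA receptor partner known as stargazin, and Cacng8 did not pass. Cacng8 passed in SCI_ALA without sham library 3 (0.0397) or SCI_ALA library 1 (0.0366), and Cacng2 passed in both comparisons without sham library 2 (0.00253 and 0.00567). Among 8 tested partners of calcium and HCN channels, 4 (50%) were lower and 0 higher in SCI_Veh, against 18.4% and 19.4% of all tested genes. The 4 included the HCN-binding Pex5l (log2 fold change -1.53, edgeR adjusted p = 0.000879) and the syntaxin Stx1a (-1.15, adjusted p = 0.00235), a protein of the release machinery.

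Among the HCN genes, Hcn2 fell in both injured groups and Hcn4 rose in 1. Hcn2, the main HCN gene of the tissue, had 350.3, 255 and 269 CPM in sham, 170, 96.8 and 113 in SCI_Veh and 106, 95.9 and 78.8 in SCI_ALA. All sham libraries lay above all injured ones, and Hcn2 fell by 1.2 ± 0.22 in SCI_Veh and by 1.64 ± 0.22 in SCI_ALA on the log2 scale (edgeR adjusted p = 0.00129 and 0.000236). Hcn4, the slow pacemaker subunit of the heart, had 5.31, 2.85 and 8.66 CPM in sham, 5.67, 22.0 and 10.7 in SCI_Veh and 14.9, 17.8 and 11.6 in SCI_ALA. Every SCI_ALA library was above sham, and Hcn4 was called higher there (log2 fold change 1.39 ± 0.48, edgeR adjusted p = 0.0459), but the call was lost without any 1 of 6 libraries, all but sham 3, SCI_Veh 1 and SCI_Veh 2, at adjusted p between 0.0567 and 0.14. In SCI_Veh, where libraries overlapped sham, it was not called (1.18 ± 0.48, adjusted p = 0.074). It passed there without sham library 3 (0.0346) or SCI_Veh library 1 (0.021). Of the FPKM summed over Hcn2 to Hcn4, Hcn4 made up 0.884 ± 0.499% in sham, 5.03 ± 4.03% in SCI_Veh and 6.73 ± 0.984% in SCI_ALA, and Hcn2 made up 98.8, 94.5 and 92.8%. Hcn3 did not pass with all libraries, but did in SCI_ALA without sham library 2 (0.0435) and in SCI_Veh without both sham library 2 and SCI_ALA library 3 (0.0411).

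**Figure D2:**
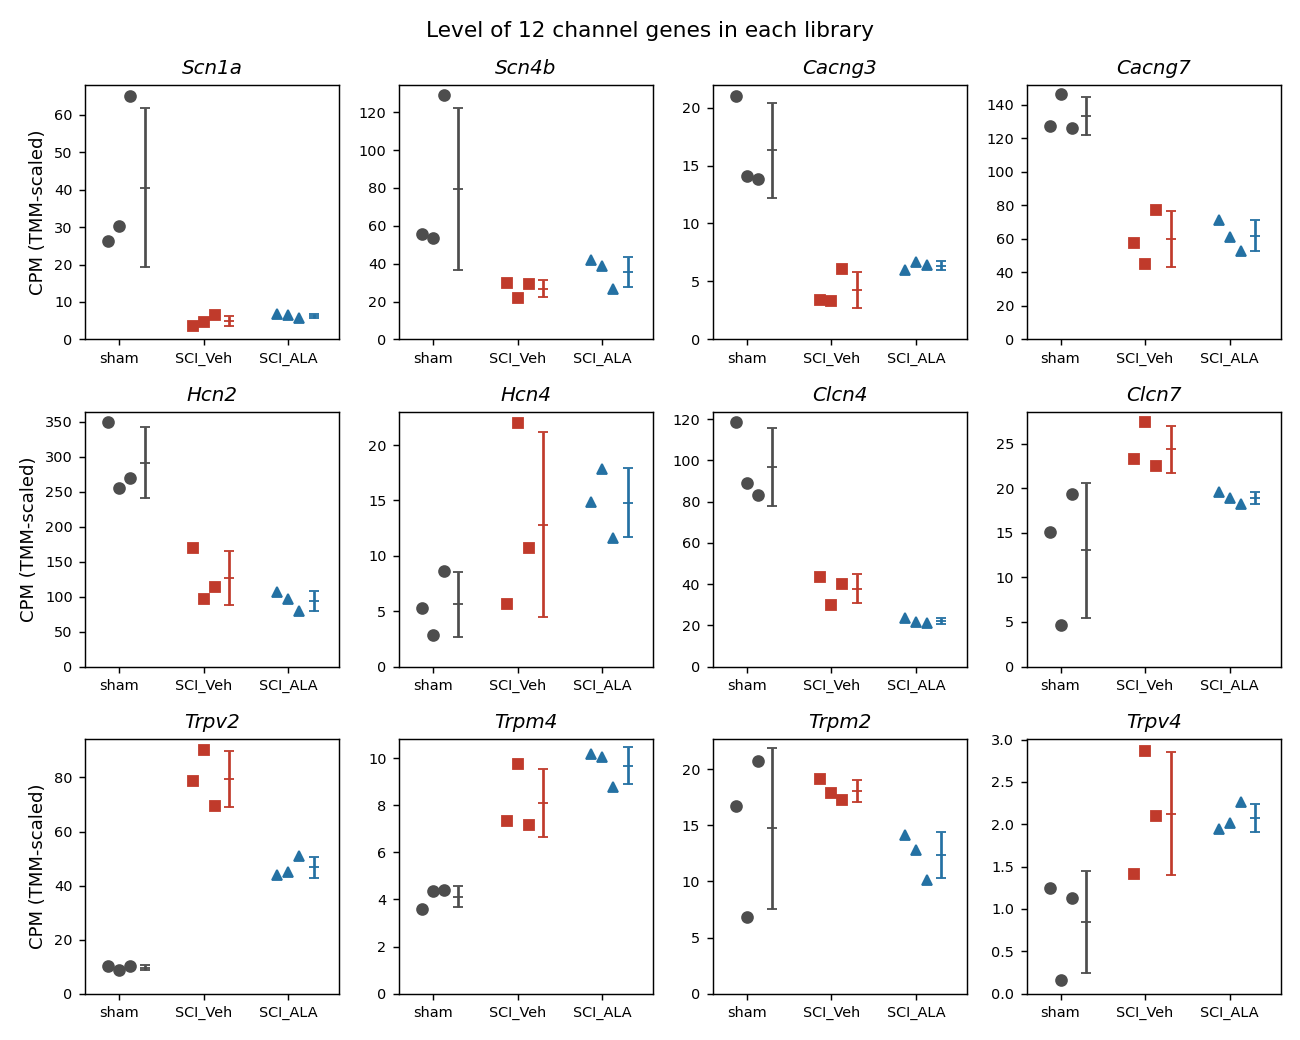
TMM-scaled CPM (y axis, from 0) of 12 channel genes in each of the 9 libraries, with the mean and SD of each group beside its points. Scn1a, Scn4b, Cacng3, Cacng7, Hcn2 and Clcn4 are lower in every injured library than in every sham library, and Trpv2 and Trpm4 are higher.

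Among the ClC genes, Clcn3 and Clcn4 fell in both injured groups. They encode endosomal chloride-proton exchangers that can pair with each other. Clcn4 had 119, 89.2 and 83.1 CPM in sham, 43.5, 29.9 and 40.0 in SCI_Veh and 23.5, 21.6 and 21.2 in SCI_ALA. The 3 groups were apart, with SCI_ALA lowest, and the log2 fold change was -1.36 ± 0.18 in SCI_Veh and -2.13 ± 0.19 in SCI_ALA (edgeR adjusted p = 0.000169 and 1.38e-05).

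Clcn3 had 110.2, 81.2 and 109 CPM in sham, 59.9, 44.0 and 57.7 in SCI_Veh and 59.3, 49.7 and 40.8 in SCI_ALA. It fell by 0.89 ± 0.19 and by 1.0 ± 0.19 on the log2 scale (edgeR adjusted p = 0.00322 and 0.00192). Clcn6, a late endosomal exchanger, had 56.0, 46.8 and 65.4 CPM in sham, 54.2, 51.4 and 55.7 in SCI_Veh and 41.5, 32.2 and 32.5 in SCI_ALA; its SCI_Veh libraries overlapped sham and its SCI_ALA libraries lay below both. It was called only in SCI_ALA (log2 fold change -0.66 ± 0.17, edgeR adjusted p = 0.00933). Clcn7, the lysosomal exchanger needed by osteoclasts and macrophage lysosomes, had 15.1, 4.67 and 19.3 CPM in sham, 23.3, 27.4 and 22.5 in SCI_Veh and 19.6, 18.9 and 18.3 in SCI_ALA. Every SCI_Veh library was above sham, yet Clcn7 did not pass (log2 fold change 0.90 ± 0.37, edgeR adjusted p = 0.0765). Without sham library 3 it passed (0.0229), and sham library 2 was the lowest. Clcn5 did not pass either (log2 fold change -0.01 and -0.16).

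Of the FPKM summed over Clcn2 to Clcn7, Clcn7 held 6.71 ± 3.53% in sham, 20.1 ± 3.71% in SCI_Veh and 20.6 ± 2.03% in SCI_ALA. Its own level was not called different in either comparison with sham, and the sum includes Clcn3 and Clcn4, which fell. The share of Clcn4 went the other way, from 33.0 ± 4.97% to 19.4 ± 2.27% and 15.3 ± 1.22%. No sham library reached the shares of the injured libraries for either gene.

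**Figure D3:**
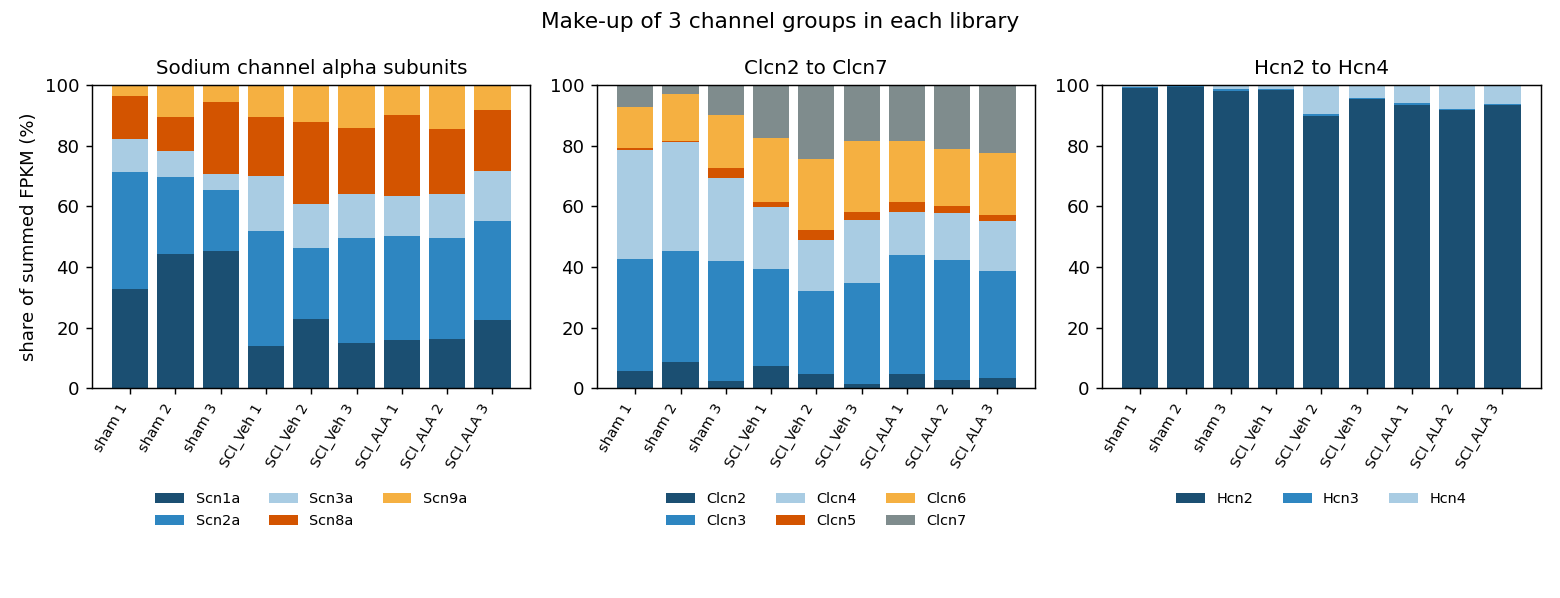
Share of summed FPKM (y axis, percent) in each of the 9 libraries (x axis) for 3 channel groups, with 1 colour per gene. The groups are the sodium channel alpha subunits of the neuronal class (without Scn7a and Scn4a), Clcn2 to Clcn7 and Hcn2 to Hcn4. The Scn1a share is 32.6 to 45.4% in sham and at most 22.8% in injured libraries. The Clcn7 share is at most 9.98% in sham and at least 17.5% in injured libraries, although its own level was not called different.

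Promoters of the endosomal and lysosomal ClC genes are shown because 3 of the 5, all of which have an entry, hold the E-box CACGTG, the core of the element that TFEB reads at lysosomal genes. The palindrome CACGTG occurred in 6.42% of all 33469 promoters, and among the other tested genes in those of Trpm7 and Trpv3; the motif was chosen after promoters had been read. Clcn4 (chrX:27290689-27290988, plus strand), Clcn6 (chr5:163748149-163748448, minus strand) and Clcn7 (chr10:14656011-14656310, plus strand) are printed from RefSeq on GRCr8, with CACGTG in capitals. Against sham, Clcn4 was called lower in both injured groups and Clcn6 in SCI_ALA, and Clcn7 was not called. In SCI_ALA against SCI_Veh their log2 fold changes were -0.78, -0.60 and -0.37, none past the adjusted threshold in edgeR. A link between the motif and these levels was not tested.
Clcn4: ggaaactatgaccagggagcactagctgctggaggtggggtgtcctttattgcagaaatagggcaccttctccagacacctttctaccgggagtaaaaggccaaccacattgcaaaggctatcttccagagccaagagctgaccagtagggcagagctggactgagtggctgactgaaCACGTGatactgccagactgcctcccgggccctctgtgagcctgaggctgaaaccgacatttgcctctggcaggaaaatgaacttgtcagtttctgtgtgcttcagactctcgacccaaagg
Clcn6: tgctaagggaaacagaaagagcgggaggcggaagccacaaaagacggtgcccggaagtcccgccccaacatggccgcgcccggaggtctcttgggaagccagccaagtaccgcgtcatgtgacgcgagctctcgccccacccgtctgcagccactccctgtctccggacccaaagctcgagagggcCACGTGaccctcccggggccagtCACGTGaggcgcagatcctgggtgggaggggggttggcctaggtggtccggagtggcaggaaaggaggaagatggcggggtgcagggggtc
Clcn7: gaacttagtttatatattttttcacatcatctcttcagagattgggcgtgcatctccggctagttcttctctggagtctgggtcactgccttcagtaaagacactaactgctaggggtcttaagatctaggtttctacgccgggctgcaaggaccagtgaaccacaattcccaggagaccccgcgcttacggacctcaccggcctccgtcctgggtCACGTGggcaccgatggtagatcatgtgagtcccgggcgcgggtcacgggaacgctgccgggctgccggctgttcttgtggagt

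Outside the ClC name pattern, 21 other chloride channel and transporter genes were tested, of which 5 were lower and 4 higher in SCI_Veh, shares of 23.8% and 19% that are near those of all tested genes (18.4% and 19.4%). Slc12a5, the neuronal chloride extruder KCC2, had 36.2, 17.6 and 59.9 CPM in sham, 8.18, 4.47 and 7.97 in SCI_Veh and 13.0, 5.97 and 6.94 in SCI_ALA. It fell by 2.46 ± 0.45 and by 2.13 ± 0.45 on the log2 scale (edgeR adjusted p = 0.00174 and 0.00436), with sham above all injured libraries. Slc12a2, the chloride importer NKCC1, fell less, by 0.65 ± 0.20 and by 1.01 ± 0.20 (adjusted p = 0.0217 and 0.00248). Clic1, an intracellular chloride channel protein of many cells including microglia, rose from 73.5, 81.4 and 84.6 CPM in sham to 341, 392 and 346 in SCI_Veh and 282, 332 and 395 in SCI_ALA (log2 fold change 2.17 and 2.07, edgeR adjusted p = 3.58e-06 and 7.09e-06). The astrocyte genes Ttyh1 and Mlc1 fell by 1.78 and 1.49 on the log2 scale in SCI_Veh (adjusted p = 4.16e-05 and 9.38e-05), where 7 of 8 astrocyte markers were also lower.

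Of 17 tested TRP genes, 3 were higher and 4 lower in SCI_Veh, with a median log2 fold change of 0.29. These are 17.6% and 23.5% of them, near the 19.4% and 18.4% of all tested genes. Trpv2, a cation channel of macrophages linked to phagocytosis, had the largest rise among the 61 genes. It stood at 10.2, 8.78 and 10.1 CPM in sham, 78.6, 90.1 and 69.3 in SCI_Veh and 44.1, 45.0 and 51.0 in SCI_ALA. The 3 groups were far apart, with SCI_Veh highest. Trpv2 was 8.19-fold higher in SCI_Veh (log2 fold change 3.03 ± 0.16, edgeR adjusted p = 6.13e-07) and 4.82-fold higher in SCI_ALA (2.27 ± 0.16, adjusted p = 3.83e-06). It made up 11.5 ± 1.58% of the FPKM of tested TRP genes in sham, 52.8 ± 2.56% in SCI_Veh and 42.0 ± 4.72% in SCI_ALA. The macrophage marker Cd68 had 21.4, 13.6 and 31.4 CPM in sham, 271, 303 and 254 in SCI_Veh and 174, 200.2 and 212 in SCI_ALA. Of the 10 microglia and macrophage markers, 9 were called higher in SCI_Veh, and Tmem119 was not called. In SCI_ALA 7 were higher, Cx3cr1 and P2ry12 were not called, and 1, Tmem119, was lower. The part of these markers in the Trpv2 values was not tested.

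The promoter of Trpv2 (chr10:47771973-47772272, plus strand, RefSeq, GRCr8) is shown as that of the leading riser. In capitals is GGAAGTG, a core read by many ETS family factors, found on either strand in 9.86% of all promoters and in 3 of the 46 tested genes with an entry (Scn4a, Trpc4ap and Trpv2), and also chosen after promoters had been read.
Trpv2: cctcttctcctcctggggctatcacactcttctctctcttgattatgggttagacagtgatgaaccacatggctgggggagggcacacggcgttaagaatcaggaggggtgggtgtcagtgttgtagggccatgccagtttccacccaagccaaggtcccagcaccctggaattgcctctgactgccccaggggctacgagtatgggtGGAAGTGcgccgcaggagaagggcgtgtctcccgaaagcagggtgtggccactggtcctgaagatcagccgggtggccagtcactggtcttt

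Trpm4, a calcium-activated channel for monovalent cations, was the other TRP gene higher in both injured groups. It had 3.60, 4.35 and 4.40 CPM in sham, 7.34, 9.74 and 7.16 in SCI_Veh and 10.2, 10.1 and 8.79 in SCI_ALA, and no injured library reached down to sham. Its log2 fold changes were 0.97 ± 0.25 and 1.23 ± 0.25 (edgeR adjusted p = 0.0088 and 0.00271). Trpc6, a diacylglycerol-gated channel, had 9.90, 4.27 and 8.86 CPM in sham, 22.3, 14.1 and 10.8 in SCI_Veh and 9.31, 15.1 and 7.42 in SCI_ALA. It was called higher in SCI_Veh (1.03 ± 0.38, edgeR adjusted p = 0.0476), a call that ended without any 1 of 5 libraries, sham 2 and 3, SCI_Veh 1 and 2 and SCI_ALA 1, at adjusted p between 0.0613 and 0.203.

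Trpc1, a broadly expressed TRPC subunit, had 23.7, 30.0 and 23.4 CPM in sham, 10.6, 7.80 and 9.12 in SCI_Veh and 10.2, 8.74 and 9.55 in SCI_ALA. Sham lay above both injured groups, and Trpc1 fell by 1.48 ± 0.20 and by 1.43 ± 0.20 on the log2 scale (edgeR adjusted p = 0.000164 and 0.000266). Trpc5, at 2.23, 0.633 and 3.00 CPM in sham and 0, 0.6 and 0.405 in SCI_Veh, would not have reached the filter without its sham libraries, nor without those of SCI_ALA. Its call (log2 fold change -2.53 ± 0.88, adjusted p = 0.0399) ended without any 1 of 6 libraries, all but sham 2, SCI_Veh 2 and SCI_ALA 3, at adjusted p between 0.0541 and 0.116. Trpc4 was not called. Trpm3 and Trpm7, a channel fused to a kinase, did not pass in SCI_Veh (log2 fold change -0.88 and 0.52, edgeR adjusted p = 0.0659 and 0.0785). They passed there without sham library 2 (Trpm3, 0.00637) and without sham library 3 (Trpm7, 0.0158).

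Among glial and immune channels other than Trpv2, Trpm2 and Trpv4 did not pass. Trpm2, an oxidant-gated calcium channel of microglia and macrophages, had 16.7, 6.80 and 20.7 CPM in sham, 19.1, 17.9 and 17.2 in SCI_Veh and 14.1, 12.8 and 10.2 in SCI_ALA, all within the range of sham. Its log2 fold change was 0.29 ± 0.32 in SCI_Veh (95% interval -0.41 to 0.99, edgeR adjusted p = 0.507). In SCI_ALA it was -0.26 ± 0.32 (adjusted p = 0.576), called lower only without sham library 2 (0.0386). Trpv4, a swelling-sensitive channel of astrocytes, had 1.25, 0.158 and 1.13 CPM in sham, 1.42, 2.87 and 2.09 in SCI_Veh and 1.94, 2.01 and 2.27 in SCI_ALA. Each injured library lay above sham, at log2 fold changes of 1.30 ± 0.61 and 1.27 ± 0.61 that did not pass (edgeR adjusted p = 0.113 and 0.132).

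Cacng5, listed with glia, had 5.77, 1.03 and 1.93 CPM in sham, 0.966, 0.200 and 0.608 in SCI_Veh and 1.07, 0.347 and 0.206 in SCI_ALA, and reached the filter through sham. It was called lower in both (log2 fold change -2.28 ± 0.81 and -2.41 ± 0.82, edgeR adjusted p = 0.0439 and 0.0412). The first call ended without sham 1, any SCI_Veh library or SCI_ALA 2 (up to 0.254), and the second without sham 1, SCI_Veh 3, SCI_ALA 2 or SCI_ALA 3 (up to 0.235). Cacng4, an AMPA receptor partner of oligodendrocyte precursors and neurons, had 35.7, 28.6 and 20.05, then 30.7, 18.5 and 27.7, then 21.5, 14.5 and 15.5 CPM. Clcn2, a plasma membrane chloride channel that glia need for healthy white matter, had 13.5, 14.9 and 4.93, then 10.8, 5.74 and 1.76, then 5.56, 2.78 and 3.02 CPM. Scn7a, a sodium sensor of glia, had 6.42, 6.41 and 4.6, then 3.61, 6.34 and 6.89, then 3.62, 5.41 and 2.88 CPM. All 3 overlapped between sham and both injured groups and were not called with all libraries. In SCI_ALA, Cacng4 (0.0533 with all libraries) and Clcn2 (0.0689) each passed without any 1 of 3 libraries: sham 3, SCI_Veh 2 or SCI_ALA 1 for Cacng4 (0.0197 to 0.0412), and sham 3, SCI_Veh 1 or SCI_Veh 3 for Clcn2 (0.0252 to 0.0473). The Clcn2 gene overlaps Map3k13, and counting by strand is not stated, so its reads cannot be told apart from those of its neighbour.

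Channels known mainly from other tissues were low in all groups. Scn4a, the sodium channel of skeletal muscle, had 0.459, 0.554 and 0.133 CPM in sham, 1.87, 1.73 and 2.16 in SCI_Veh and 0.938, 0.763 and 0.755 in SCI_ALA, 3 groups that did not overlap. It was called higher in SCI_Veh (log2 fold change 2.32 ± 0.60, edgeR adjusted p = 0.00952), where 0 of 7 tested skeletal muscle markers were called. Trpv6, an epithelial calcium channel, had 4.0, 4.51 and 3.66, then 1.03, 0.934 and 0.878, then 1.94, 0.625 and 0.412 CPM. It fell by 2.09 ± 0.54 and by 2.02 ± 0.54 on the log2 scale (edgeR adjusted p = 0.0101 and 0.0139), the second call ending without SCI_ALA library 2 (0.0581). Of the temperature and pain channels of sensory neurons, Trpv1 was tested and did not pass (log2 fold change -1.59, adjusted p = 0.072), while Trpa1 and Trpm8 stayed under the filter. Trpc2, Trpm1, Trpm6, Trpv3 and Clcn1 were not called, although Trpv3 passed in SCI_Veh without sham library 2 (0.0389) or SCI_Veh library 2 (0.0423). Trpv3 overlaps Aspa, an abundant gene of oligodendrocytes on the other strand, so its counts are uncertain.

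The 15 genes that were not tested had at most 33 counts in a sham library, 17 in a SCI_Veh library and 10 in a SCI_ALA library, and include Trpa1, Trpc7, Trpm5, Trpm8, Trpv5, Cacna1f, Cacna1s, Cacna2d4, Cacng1, Cacng6, Scn10a, Scn11a and Trpc5os. Trpc7 had 24, 9 and 33 counts in sham, 1, 1 and 7 in SCI_Veh and 6, 1 and 1 in SCI_ALA. Among the tested genes, 6 would not have reached the filter without the sham libraries, among them Trpc5, Trpv1, Cacna1e, Cacng5 and Clcn1. Of the 55 that reached it without them, 20 were lower in SCI_Veh and 18 in SCI_ALA.

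Other calcium-permeable and cation channels outside the name pattern were tested beside the TRP genes. Of 18, 4 (22.2%) were lower and 6 (33.3%) higher in SCI_Veh, against 18.4% and 19.4% of all tested genes. Those lower were Asic1, Asic2, Stim1 and Stim2. Hvcn1, the proton channel of phagocytes, rose from 2.56, 1.82 and 1.2 CPM in sham to 13.4, 11.4 and 11.3 in SCI_Veh and 8.71, 6.18 and 5.29 in SCI_ALA (log2 fold change 2.69 and 1.85, edgeR adjusted p = 8.9e-05 and 0.00129). Mcoln3, an endolysosomal TRP relative, had 0.328, 0 and 0.200 CPM in sham, 7.34, 6.74 and 3.31 in SCI_Veh and 3.35, 2.01 and 2.06 in SCI_ALA. Piezo1, a stretch-gated channel, had 16.5, 9.97 and 23.8, then 64.6, 80.2 and 45.4, then 47.5, 50.8 and 35.1 CPM. Both were higher in each injured group (Mcoln3 4.92 and 3.70, Piezo1 1.91 and 1.40 on the log2 scale, edgeR adjusted p at most 0.00417). Injured and sham libraries did not overlap for Hvcn1, Mcoln3 or Piezo1.

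With alpha-lipoic acid, 19 of the 61 genes were lower than sham and 3 higher, 31.1% and 4.92%, against 15.7% and 17.3% of all genes tested, with a median log2 fold change of -0.66 against -0.01. DESeq2 called 23 lower, with Cacnb2, Cacng4, Cacng8 and Clcn2 added, and 3 higher (17.9% and 19.4% of all genes), and without sham library 2 and SCI_ALA library 3 edgeR called 16 and 2. Both injured groups are compared with the same sham libraries. Of the genes called lower, 18 were called in both comparisons, 6 in SCI_Veh only (among them Cacna1e, Cacna1g, Cacnb1, Cacnb2 and Trpc5) and 1 in SCI_ALA only (Clcn6). Of those called higher, Trpm4 and Trpv2 were called in both, Scn4a and Trpc6 in SCI_Veh only and Hcn4 in SCI_ALA only. A call in 1 comparison and not in the other does not show that the treated and untreated groups differ, and the direct comparison follows. Of the neuronal genes, 13 were lower and 1 higher than sham, with a median of -1.08, which was -0.69 without sham library 3. The glial or immune genes had 1 lower and 1 higher and a median of -0.55, which was -0.69 without the same library, and DESeq2 called 3 of the 7 lower. By edgeR, 14.3% of this class was called in each direction, near the 15.7% and 17.3% of all genes, and 40.6% of the neuronal genes were lower. The 1 lower was Cacng5, which reached the filter through sham.

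Alpha-lipoic acid against saline changed no channel gene past the adjusted threshold. The count was 0 lower and 0 higher of 61, where 0.0418% and 0.0776% of all tested genes were called (edgeR, adjusted p below 0.05). At an unadjusted edgeR p below 0.05 there were 5 lower (Trpv2, Clcn4, Clcn6, Cacng4 and Scn4a) and 2 higher, against 5.97% and 6.29% of all genes. DESeq2 called 2 lower, Trpv2 and Clcn4, and 1 higher, against 1.0% and 1.43% of all genes. Libraries of the 2 groups did not overlap for 7 genes lower and 8 higher in SCI_ALA, against 12.2% and 11.5% of all genes.

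Trpv2 had the smallest p. It was 1.70-fold lower with alpha-lipoic acid (log2 fold change -0.76 ± 0.15, 95% interval -1.09 to -0.44, edgeR adjusted p = 0.0994), with every SCI_ALA library below every SCI_Veh library. It passed in DESeq2 (adjusted p = 0.00181), in edgeR with only the 2 groups in the fit (0.0408) and without sham library 2 (0.0463). The microglia and macrophage markers had a median log2 fold change of -0.52 in this comparison, 8 of 10 of them below 0, none called, and their part in the Trpv2 difference was not tested.

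Clcn4 followed at -0.78 ± 0.18 (95% interval -1.18 to -0.37, edgeR adjusted p = 0.144, DESeq2 adjusted p = 0.015) and Clcn6 at -0.60 ± 0.16 (-0.96 to -0.24, edgeR adjusted p = 0.186).

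By class, the signs differed without single genes passing. The 7 glial or immune genes all had log2 fold changes below 0 in SCI_ALA against SCI_Veh, with a median of -0.55. Among all 16760 tested genes, 8520 were below 0 and 8239 above. The class medians over the alternative settings were between -0.73 and -0.31. Some single genes moved more: Cacng5 (-0.12) ranged from -1.07 to 0.42 over the alternatives, and Clcn2 (-0.69) from -1.13 to 0.00. Of the 32 neuronal genes 23 were above 0, with a median of 0.20, and between 0.10 and 0.38 over the alternatives. The median over all genes tested was -0.01, that of the neuron markers 0.30 and that of the microglia and macrophage markers -0.52. The glial or immune class also holds genes of oligodendrocyte precursors and astrocytes, whose markers had medians of -0.60 and 0.26, and the part of these shifts in the class values was not tested. For most single neuronal channels the intervals were wide. That of Scn1a (0.36 ± 0.34, from -0.39 to 1.11) allowed either sign, and a p above the threshold does not show equal levels. Gene length went with this comparison across all tested genes (Spearman rho -0.275 over genes), and 56 of the 61 genes are longer than the median tested gene. With each library's length trend removed, 0 genes were called in either direction, and the class medians were 0.28 (neuronal) and -0.46 (glial or immune).

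**Figure D4:**
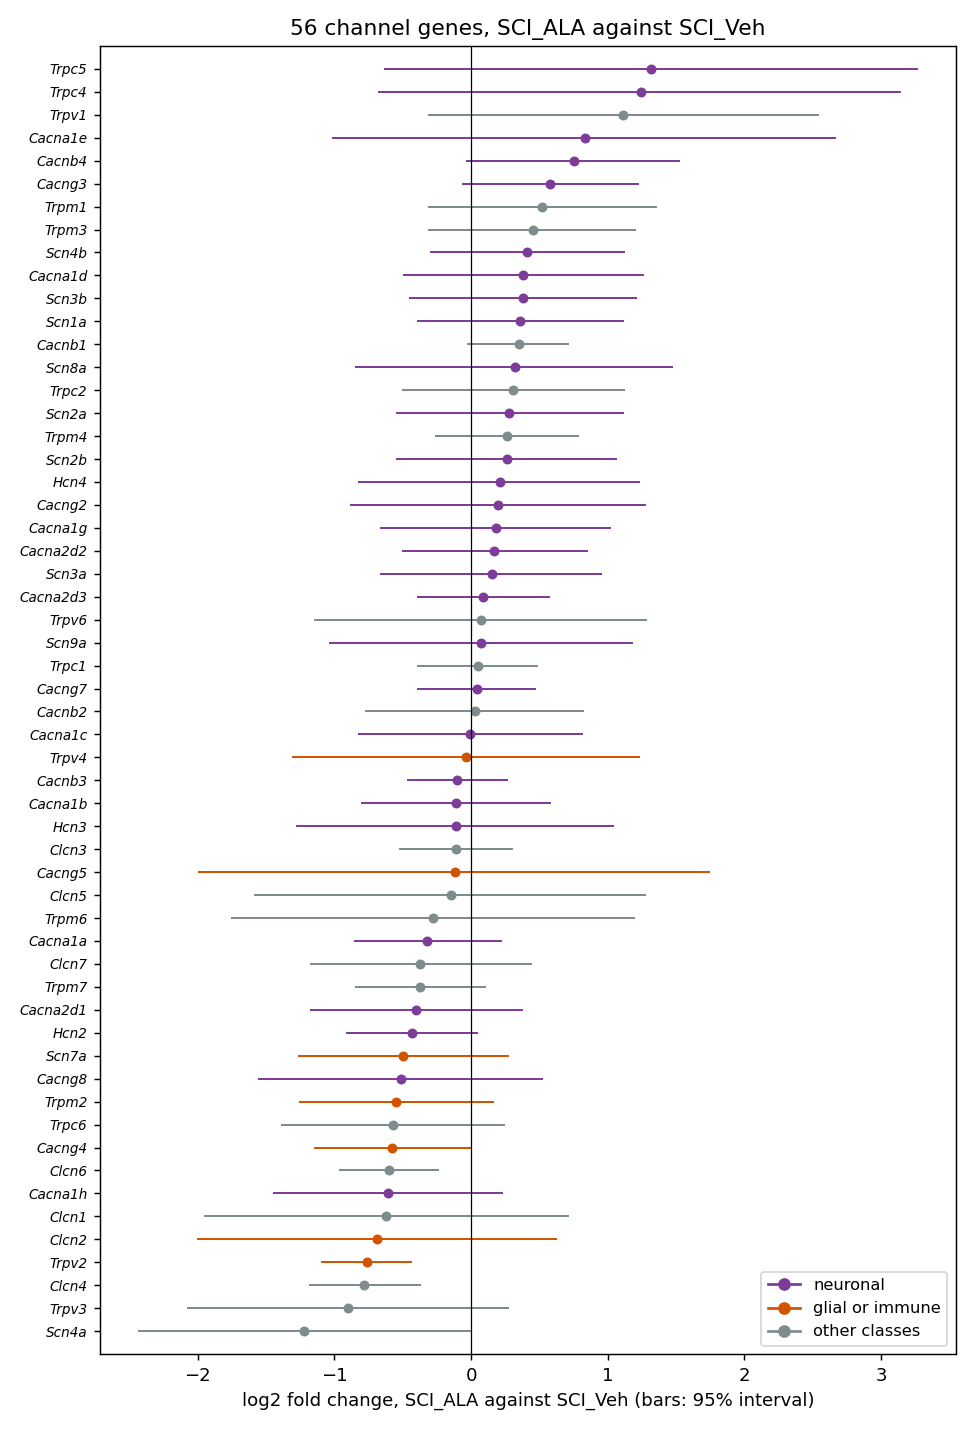
Log2 fold change of SCI_ALA against SCI_Veh (x axis) for 56 of the 60 tested channel genes (y axis, sorted), with bars for the 95% interval and colours for neuronal (purple), glial or immune (orange) and other classes (grey). The glial or immune genes all lie left of 0, and the intervals of Trpv2, Clcn4, Clcn6, Cacng4 and Scn4a do not reach 0.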

How the data were processed

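RNA of 9 spinal cord libraries was sequenced after preparation with a NEBNext Ultra RNA kit, per the labels. The submitters' processing notes name HISAT2 2.0.5, featureCounts 1.5.0-p3, DESeq2 1.20.0 and the build Rnor_6.0, with no role or strand setting. The authors deposited raw counts and FPKM values for 36051 genes. Groups and replicate numbers came from sample titles. Counts were fitted with edgeR 4.0.16 (R 4.3.3): genes with at least 10 counts in at least 3 libraries (16760), TMM factors, group means over all 9 libraries, a robust quasi-likelihood test and Benjamini-Hochberg adjustment over all genes at 0.05. CPM compare libraries within a gene, and FPKM compare genes. The procedure was checked on simulated counts. Values in every library are given by a rule: up to 4 lower and 3 higher genes per family by p in SCI_Veh against sham, the 5 smallest p in SCI_ALA against SCI_Veh, glial or immune genes and fixed genes; further genes were added after their values were seen. Members, classes, marker and partner lists were chosen with earlier results of these data known. Cacna1i is annotated as a processed transcript and was not analysed here. A few of the genes are not reported here by name or drawn, and stay in all counts and medians. Alternatives used DESeq2 1.42.0 and limma 3.58.1. Counts of every replicate pair differed beyond sampling noise (chi-square over its degrees of freedom from 17.8 to 64), and each library was counted once. Floors cover counting error only. Promoter sequences came from RefSeq on GRCr8 and no coordinates were converted. Figures were drawn with matplotlib 3.10.9.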

Additional observations from a re-analysis of the deposited data

How the results depend on the processing

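Counts of channel genes lower than sham stayed within 1.5 times of 24 (SCI_Veh) and 19 (SCI_ALA) under every alternative: other scaling factors, filters, DESeq2, limma on FPKM, a replicate block, 2 groups only, non-robust estimates, removal of each library's length trend, and sham 2 and SCI_ALA 3 left out together. Without 1 library they ranged from 18 to 27 and from 14 to 24. These counts rest on unlike sets of genes. The main fit tested 61, limma on FPKM of at least 1 tested 40, the filter at 50 counts 47, and the fits without a filter 75. Shares of all genes called are given only for the main fit and DESeq2. For the other settings the counts therefore do not show how channel genes stood beside all genes. The 4 genes higher in SCI_Veh became 2 with at least 50 counts in 3 libraries, where low genes are not tested, 2 with limma on FPKM of at least 1 at a pseudocount of 1 and 2 at 0.1, and 7 with DESeq2 (leaving out 1 library: 3 to 6); the cause of the last 3 was not tested. The 3 higher in SCI_ALA ranged from 2 to 3 without 1 library. In SCI_ALA against SCI_Veh, the 0 lower became 2 with DESeq2, 1 with only the 2 groups and 0 to 1 without 1 library, and the 0 higher became 1 with DESeq2 and stayed 0 without 1 library; the cause was not tested. No call changed sign. Of the 28 and 22 calls against sham, 20 and 14 held under every alternative that tested the gene; the others include Cacna1e, Cacna1g, Cacnb1, Cacnb2, Cacng5, Trpc5 and Trpc6 in SCI_Veh, and Cacna2d2, Cacnb4, Cacng5, Hcn4, Scn2a, Scn3b, Scn4b and Trpv6 in SCI_ALA. Libraries with the same number did not deviate together (correlations -0.0856 to 0.177), so the numbers were not taken as pairs. With a replicate block the counts were 22 lower and 3 higher in SCI_Veh, 20 and 2 in SCI_ALA, and 0 and 0 between the injured groups. Depth limits genes under about 1 CPM, such as Trpc4, Trpm6 and Clcn1.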
